A study of Arabidopsis thaliana with 21 samples.

Results

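The experiment described here set the positions of the histone variant H2A.Z against those of acetylated histone H4 (H4Ac) in wild-type (WT) *Arabidopsis thaliana* seedlings. It comprised 6 of the 21 libraries of the series, 3 immunoprecipitated with an antibody against H2A.Z and 3 with an antiserum against the acetylated tail of H4, chosen by their labels. All 6 came from seedlings of the Col-0 ecotype, 6 days old and without roots, grown in long days on plates and fixed with formaldehyde, and neither group carried a mutation or received a treatment. Per the Methods, H2A.Z and H4Ac libraries with the same replicate number were made from portions of 1 chromatin preparation, so the 3 preparations were the replicates.

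H2A.Z replaces H2A in nucleosomes, where it is deposited by the SWR1 remodeling complex, and in plants it is found mainly just downstream of transcription start sites (TSSs), with some genes carrying it across their whole body. Acetyl groups on the H4 tail are written by histone acetyltransferases, among them the NuA4 complex, which shares subunits with SWR1, and they are known as a mark of promoters and 5′ ends of active genes. Whole aerial tissue was used, so the lists cannot tell whether 2 marks on a gene sat on the same nucleosome, or even in the same cells. A peak present in few cells cannot be told apart from a weak peak in all cells. The lists hold no expression values, and the tissue could not be checked against marker levels.

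In the H2A.Z lists there were 9260, 6263 and 8121 peaks in replicates 1, 2 and 3, against 12030, 10565 and 10439 peaks in the H4Ac lists. The H2A.Z peaks covered 7385, 4503 and 5997 kb, and the H4Ac peaks covered 10285, 9059 and 9093 kb. Median peak width was 668, 587 and 635 bp for H2A.Z and 788, 812 and 819 bp for H4Ac. In each list the narrowest width was also the most common one. This width was 439, 461 and 428 bp for H2A.Z and 424, 454 and 456 bp for H4Ac. It was held by 29.7%, 41.3% and 34.6% of H2A.Z peaks and by 9.77%, 13.4% and 12.3% of H4Ac peaks. The reads behind a peak are not known from these lists, and the part that sequencing depth or peak calling has in the difference in number was not tested.

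Shown first are stretches of the 3 genes of at least 1000 bp that carried both marks in every replicate and whose offset between the marks, in the replicate where it deviated most, stayed nearest to 17.5 bp, the mean over replicates of the median offset. Each stretch is 120 bp of TAIR10, read 5′ to 3′ along the transcribed strand, and the capitals mark the bases between the centre of the H4Ac peak and the centre of the H2A.Z peak in replicate 1, both centres included. They show offsets of 34, 33 and 35 bp, above the signed median of 11 bp in replicate 1. The distance without sign was larger, with a median of 100 to 102 bp over genes with both marks.
VGT1: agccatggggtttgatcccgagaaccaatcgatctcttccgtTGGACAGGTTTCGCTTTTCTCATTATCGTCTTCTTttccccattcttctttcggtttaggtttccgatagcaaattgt
SMO1-2: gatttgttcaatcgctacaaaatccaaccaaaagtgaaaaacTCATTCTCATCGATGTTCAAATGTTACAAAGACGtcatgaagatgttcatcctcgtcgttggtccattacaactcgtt
EDD1: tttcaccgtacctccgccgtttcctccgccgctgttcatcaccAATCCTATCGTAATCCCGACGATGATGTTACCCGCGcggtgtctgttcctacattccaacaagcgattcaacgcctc
The stretch of VGT1 (AT3G03090), a vacuolar glucose transporter gene on the minus strand, is chr3:704464-704583 and spans coding exon and intron with 4 bases of UTR. SMO1-2 (AT4G22756), which encodes a sterol C4-methyl oxidase, is also on the minus strand, and its stretch at chr4:11956378-11956497 lies in a coding exon. EDD1 (AT3G48110), a glycine-tRNA ligase gene on the plus strand, has its stretch in a coding exon at chr3:17763231-17763350. The H2A.Z centre lay 34, 15.5 and 35.5 bp downstream of the H4Ac centre in VGT1 in replicates 1, 2 and 3. The values were 33, 37.5 and 19.5 bp in SMO1-2 and 35, 10.5 and 38 bp in EDD1. In replicates 2 and 3 SMO1-2 and EDD1 each had 461 and 428 bp under H2A.Z, the widths of the narrowest peaks there. In replicate 1, the H2A.Z peak of EDD1 ran over chr3:17762981-17763637 and its H4Ac peak over chr3:17762899-17763649, so that the first lay inside the second.

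A gene was taken to carry a mark in a library when at least 200 bp of its body lay under peaks of that library, and 27215 protein-coding genes of chromosomes 1 to 5 were long enough to be scored. H2A.Z was carried by 30.5%, 20.2% and 25.8% of genes in replicates 1, 2 and 3, and H4Ac by 45.9%, 40.4% and 40% of genes. The mean was 25.5% ± 5.15 for H2A.Z and 42.1% ± 3.31 for H4Ac (SD, n = 3 each). The 2 sets of values did not overlap, and the difference of -16.6 percentage points had a p of 0.1 in an exact two-sided permutation test, the smallest that 3 libraries against 3 can give. The exact tests used here can therefore not pass a threshold of 0.05 with these libraries. Among the 7342 genes with no other gene within 500 bp the order turned round, with H2A.Z on 30.5% ± 5.74 and H4Ac on 26.7% ± 2.67 of genes (exact permutation p = 0.4, n = 3 each). It also turned when at least 50% of the body had to be covered, with a difference of 0.356 points, and it was -4.81 points with all lists trimmed to an equal peak number.

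Most genes fell into the classes with 1 mark or none. Both marks lay on 2913, 1557 and 2012 genes in the 3 replicates, which is 7.94% ± 2.54 of genes (SD, n = 3). H2A.Z alone was found on 5381, 3939 and 4996 genes (17.5% ± 2.74), H4Ac alone on 9580, 9437 and 8864 genes (34.1% ± 1.39), and neither mark on 9341, 12282 and 11343 genes (40.4% ± 5.52). Replicate 1 had the most genes with both marks and the fewest with neither, and replicate 2 the reverse.

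**Figure D1:**
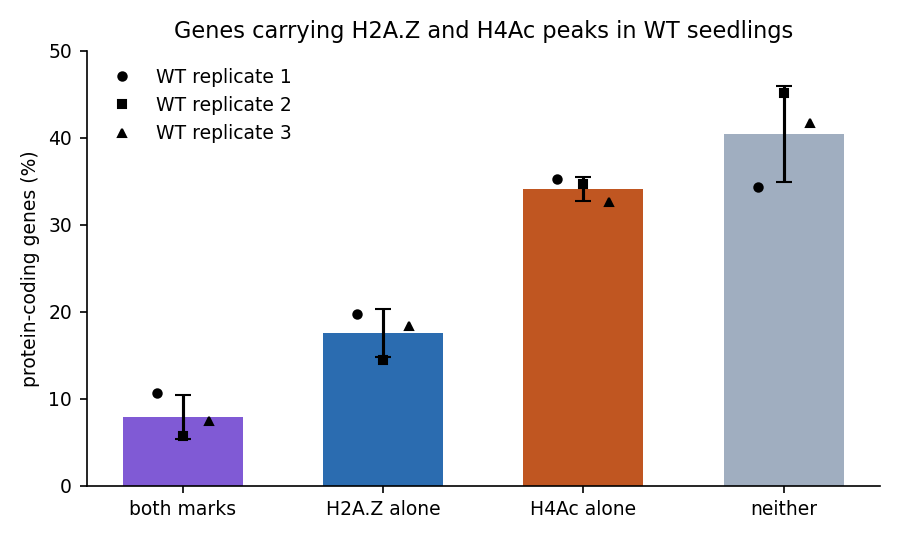
Percent of 27215 protein-coding genes (y axis) in each of 4 classes of peak content (x axis) in WT seedlings. Bars are means of 3 replicates, error bars are SD and points are single replicates. H4Ac alone (34.1%) was about as frequent in each replicate, while both marks spread most in proportion, between 5.72% and 10.7%.

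The 2 marks met on the same gene less often than they were found apart. H4Ac was present on 35.1%, 28.3% and 28.7% of genes with H2A.Z, against 50.6%, 43.5% and 43.9% of genes without H2A.Z. The difference was -15.3 ± 0.215 percentage points (SD, n = 3 preparations), negative in 3 of 3 preparations, with p = 0.25 in an exact two-sided sign-flip test, the smallest that 3 pairs allow. Seen from the other mark, H2A.Z was present on 18.7% ± 4.58 of genes with H4Ac and on 30.5% ± 6.13 of genes without it (SD, n = 3). The size of this difference depended on which genes were counted. It was -4.33 points over all annotated nuclear genes, -7.62 in a window from 500 bp upstream to 1000 bp downstream of the TSS, and 1.88 where 50% of the body had to be covered.

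The marks followed gene length differently. H2A.Z lay on 18.3% ± 4.29 of genes under 1000 bp, 28.9% ± 5.71 of genes of 1000 to 2000 bp and 21.9% ± 4.65 of genes of 6000 bp or more, and H4Ac on 10.8% ± 1.52, 35.4% ± 3.37 and 65.2% ± 5.42 of the same genes (SD, n = 3). Genes under 1000 bp carried H4Ac in 12.5% ± 2.16 of cases with H2A.Z and in 10.4% ± 1.27 without it, the only length class in which the difference was positive in every replicate. For genes of 1000 to 2000 bp these shares were 24.1% ± 3.16 and 40.1% ± 4.58. At 2000 to 3000 bp they were 35.7% ± 4.80 and 57.5% ± 4.57, and at 6000 bp or more 47.7% ± 7.48 and 70.0% ± 6.19. Thus H4Ac became more frequent with length in both sets of genes, and from 1000 bp upwards the genes with H2A.Z lay 14.6 to 25.4 points below the genes without it in every length class and replicate. Exon number followed the same order, with a difference of -4.70 ± 1.66 points in genes of 1 exon, -13.0 ± 1.21 in genes of 2 to 4 exons and -20.3 ± 1.10 in genes of 5 or more. Chromosomes 1 to 5 gave means between -16.2 and -13.1 points.

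**Figure D2:**
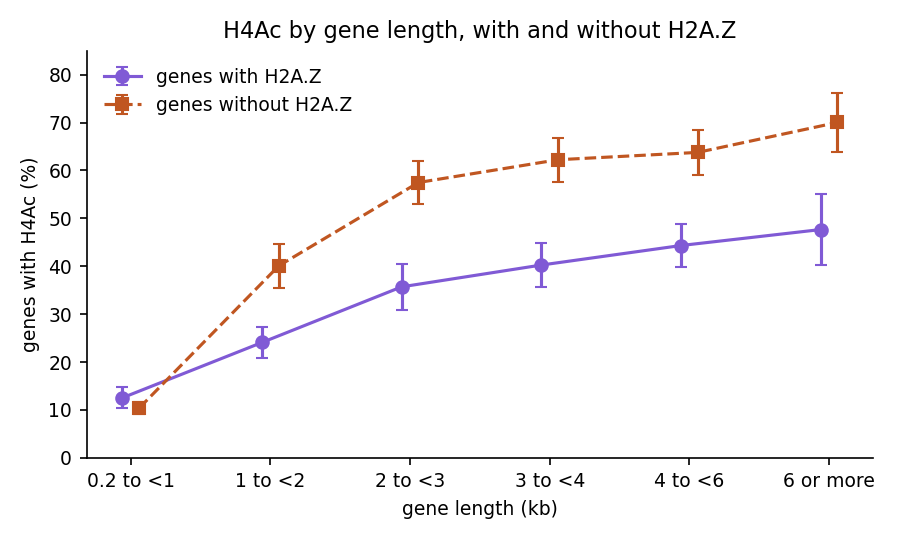
Percent of genes with H4Ac (y axis) by gene length in kb (x axis), for genes with H2A.Z (circles) and genes without H2A.Z (squares). Points are means and error bars SD of 3 replicates, and the genes with H2A.Z lie lower in each length class except the shortest, where the shares were 12.5% and 10.4%.

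Agreement between replicates differed between the marks. Of the genes with H2A.Z in one replicate, 55.5% to 83.7% carried it in another, and for H4Ac 81.3% to 93.4% did. H2A.Z was found in all 3 replicates on 3720 genes and in at least 1 on 10252, and H4Ac in all 3 on 9072 genes and in at least 1 on 13665. Among the 3720 genes, 2473 (66.5%) had no H4Ac in any replicate, 451 (12.1%) had it in 1 or 2 replicates and 796 (21.4%) in all 3. Of all genes, 50.2% had H4Ac in at least 1 replicate and 33.3% in all 3. Conversely, 70.3% of the 9072 genes with reproducible H4Ac had no H2A.Z in any replicate, against 62.3% of all genes. H2A.Z in all 3 replicates was found on 8.77% of them, against 13.7% of all genes. In all, 16951 genes (62.3%) were in the same class in all 3 replicates. Of all genes, 2.92% had both marks in every replicate, 9.09% H2A.Z alone, 23.4% H4Ac alone and 26.8% neither. These 4 stable classes are described below without a test, since genes are not replicates of a condition.

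Stable classes differed in gene structure and surroundings. Median gene length was 2504 bp with both marks, 1951 bp with H2A.Z alone, 2545 bp with H4Ac alone and 1389 bp with neither, against 2088 bp over all genes. Genes of a single exon made up 19.7% of the genes with both marks, 26.0% of those with H2A.Z alone, 11.1% with H4Ac alone and 26.5% with neither. The median distance from the TSS to the next annotated gene upstream was 645 bp with both marks, 1044 bp with H2A.Z alone, 480.5 bp with H4Ac alone and 838 bp with neither. Accordingly, 38.6% of genes with H2A.Z alone but 16.0% of genes with H4Ac alone had no other gene within 500 bp. The GC content of the first 500 bp was close in all classes, with medians of 40.6% for both marks and for H2A.Z alone, 39.6% for H4Ac alone and 38.2% for neither.

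Within each replicate the same order of lengths was seen. Genes with H2A.Z alone had median lengths of 1867, 1933 and 1929 bp, against 2455, 2448 and 2518.5 bp for genes with both marks, a difference of -564 ± 42.6 bp (exact sign-flip p = 0.25, n = 3). Genes with H4Ac alone had medians of 2510, 2532 and 2532.5 bp and were longer than the genes with both marks by 51 ± 35.2 bp (exact sign-flip p = 0.25, n = 3). The second difference was of the order of its spread. It was -10.7 bp when all lists were trimmed to an equal number of peaks, 148.5 bp in the window around the TSS and 328 bp with at least 50% of the body covered.

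Along genes, both marks were concentrated shortly after the TSS. Over all genes, H2A.Z peaks covered most genes at 400 to 450 bp from the TSS, with 18.0% ± 4.28 of genes covered, and H4Ac peaks did so over the same range of positions, with 38.0% ± 3.13 covered (SD, n = 3). The flanks were unequal. Coverage by H2A.Z reached 50% of its highest value from 50 bp to 850 or 900 bp downstream of the TSS, and coverage by H4Ac from 0 bp to 800 bp in each replicate. At the TSS itself 8.44% ± 2.21 of genes lay under H2A.Z and 22.6% ± 1.66 under H4Ac. At 1000 bp the H2A.Z value was still 42.1% ± 1.23 of its highest value, and the H4Ac value 23.2% ± 0.991 of its own. In genes of at least 3000 bp these shares were closer, at 30.9% ± 1.97 and 21.3% ± 1.35. In these long genes coverage stayed above 50% of its highest value up to 800 or 850 bp for H2A.Z and 800 bp for H4Ac. In genes with no other gene within 500 bp, coverage at 500 bp upstream was 1.19% ± 0.102 for H2A.Z and 0.617% ± 0.00786 for H4Ac, and at 1000 bp downstream it was 10.4% ± 2.63 and 8.00% ± 0.648. In these genes the highest values were 20.7% ± 4.62 for H2A.Z and 23.5% ± 2.41 for H4Ac, closer to each other than over all genes.

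**Figure D3:**
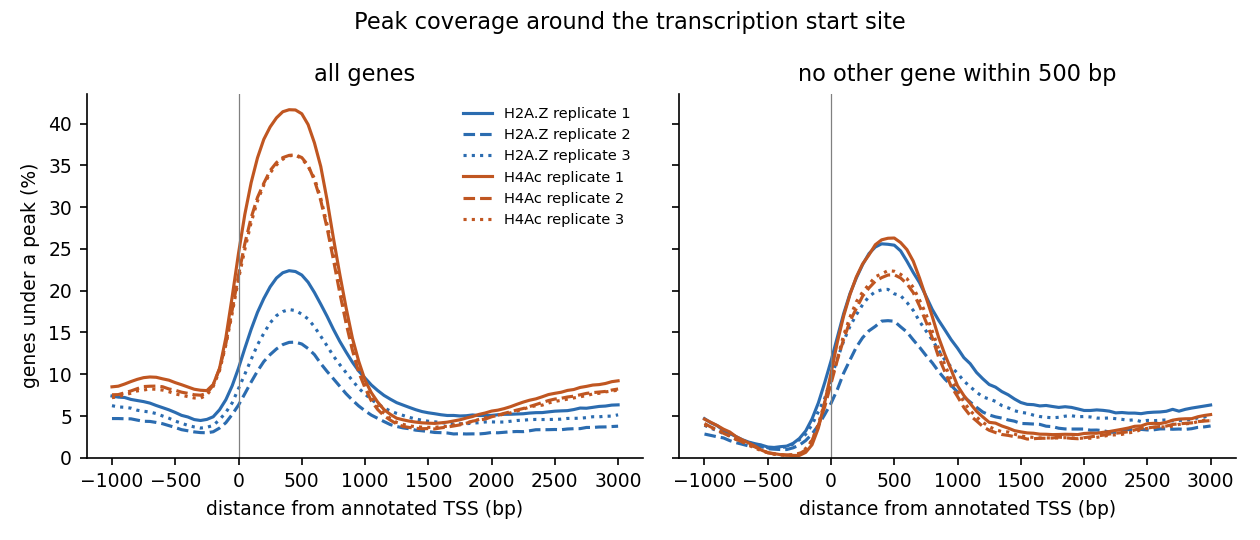
Percent of genes under a peak (y axis) by distance from the annotated TSS in bp (x axis), for 3 H2A.Z and 3 H4Ac libraries, over all genes and over genes with no other gene within 500 bp. All 6 lines are highest at 400 to 500 bp, and the H2A.Z lines decline more slowly downstream.

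Peak centres in genes lay further from the TSS for H2A.Z. The median distance was 515, 527 and 533 bp in the H2A.Z libraries and 404, 408 and 413 bp in the H4Ac libraries, a difference of 117 ± 4.93 bp (SD, n = 3) that was positive in 3 of 3 preparations (exact permutation p = 0.1, the smallest possible). The upper quartile of the distance differed more, at 879, 910 and 935 bp for H2A.Z against 540, 540 and 546 bp for H4Ac, while the lower quartile was 347 to 349 bp against 310 to 316 bp. The H2A.Z centres thus had a longer tail into gene bodies. In the window around the TSS alone the difference in medians was 37 bp. By annotation, 6.97% ± 0.714 of H2A.Z centres in genes lay in 5′ UTRs, 71.1% ± 2.38 in coding exons, 19.5% ± 1.46 in introns and 2.38% ± 0.222 in 3′ UTRs. For H4Ac the shares were 17.0% ± 0.563, 52.6% ± 0.917, 29.1% ± 0.287 and 1.32% ± 0.0782 (SD, n = 3).

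On genes that carried both marks the displacement was much smaller. For each such gene the peak with the most overlap was taken for each mark, and the offset was counted as H2A.Z minus H4Ac in the direction of transcription. The median offset was 11, 17.5 and 24 bp in replicates 1, 2 and 3, or 17.5 ± 6.5 bp downstream (SD, n = 3, exact sign-flip p = 0.25, positive in 3 of 3 preparations). Offsets varied widely between genes, from -79.7 ± 7.18 bp at the lower quartile to 127 ± 8.58 bp at the upper, and H2A.Z lay downstream on 55.3% ± 2.00 of genes. The distance without sign had a median of 100 to 102 bp. Between 2 libraries of the same mark it was 62.5 to 71 bp for H2A.Z and 42 to 45 bp for H4Ac, and the signed medians lay between -5.5 and 2 bp and between -3.5 and 0.5 bp. Offsets between H2A.Z and H4Ac of different preparations had medians of 5 to 28 bp, the range of which includes those of the same preparations. For genes with no other gene within 500 bp the medians within a preparation were -2.5, 16.5 and 3.5 bp, with a mean of 5.83 bp (exact sign-flip p = 0.5). The sign thus differed between preparations. In the window around the TSS the mean was 2.83 bp (exact sign-flip p = 0.75).

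The direction of the offset depended on how the position of a mark was measured. At the upstream edge H2A.Z peaks began 82, 106 and 131 bp downstream of H4Ac peaks, and at the downstream edge they ended 68, 87 and 91 bp upstream of them. H2A.Z peaks on these genes were narrower, with a median width of 597 ± 54.5 bp against 837 ± 17.1 bp for H4Ac (SD, n = 3). The mean position of all covered bases in the gene gave -9.83 bp, the opposite sign from the peak centres. It counts every peak of a mark, and only the bases inside the gene. The 2 peaks overlapped on 92.5% ± 1.16 of the genes, and the H2A.Z peak lay wholly within the H4Ac peak on 48.7% ± 2.47. Separate peaks with H2A.Z on the downstream side were found on 3.94% ± 0.682 of genes, and with H2A.Z on the upstream side on 3.57% ± 0.491.

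**Figure D4:**
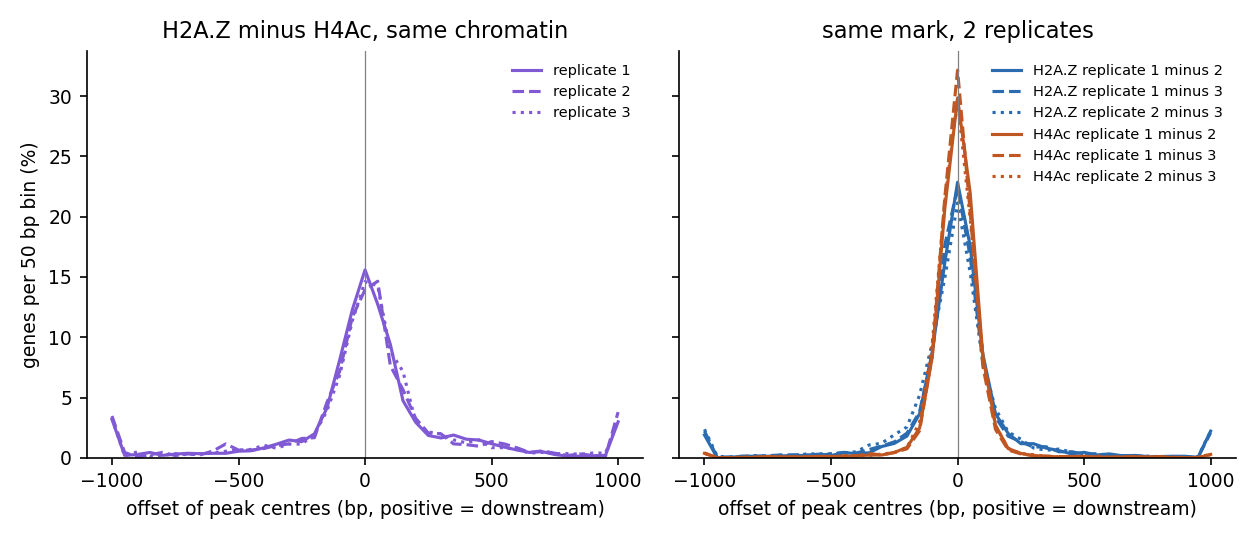
Percent of genes per bin of 50 bp (y axis) by offset of peak centres in bp, positive downstream (x axis), with the end bins holding all larger offsets. The left panel gives H2A.Z minus H4Ac in each replicate, with medians of 11, 17.5 and 24 bp, and the right panel gives the same mark in 2 replicates, where the curves are narrower.

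The sign of the offset was the same in every replicate on part of the genes. Among 766 genes of at least 1000 bp with both marks in all replicates, H2A.Z was downstream in all 3 on 264 (34.5%) and upstream in all 3 on 194 (25.3%). The furthest upstream were CalS7 (AT1G06490), a callose synthase gene, at -10442, -10449 and -7573 bp, and ASG3 (AT2G44980), a SNF2-domain helicase gene, at -4070, -4061 and -4368 bp. SEC3A (AT1G47550), an exocyst subunit gene, was furthest downstream at 7443, 7507 and 7604 bp, followed by PIP5K9 (AT3G09920), a phosphoinositide kinase gene, at 5049, 5070 and 5696 bp. These 4 genes were chosen by their mean over the same replicates, so the likeness of their values is no separate check.

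H2A.Z also took up a different part of the gene when H4Ac was absent. Its median share of the gene body was 41.1%, 34.4% and 36.3% on genes without H4Ac, against 24.6%, 23.4% and 22.6% on genes with H4Ac, a difference of 13.7 ± 2.80 percentage points (exact sign-flip p = 0.25, n = 3). In genes of 2000 to 3000 bp the shares were 29.1% ± 2.47 and 23.2% ± 1.15, a difference of 5.89 points, and with at least 50% of the body covered the difference over all lengths was 1.46 points. In each length class from 1000 bp upwards the genes without H4Ac had the larger share in every replicate. The centre of H2A.Z lay in the distal part of the gene, beyond the midpoint, on 33.2% ± 0.359 of genes without H4Ac and 13.6% ± 1.07 of genes with it. H2A.Z reached the last 200 bp of the gene on 29.8% ± 2.99 of genes without H4Ac and 10.2% ± 0.918 of genes with it. It covered at least 80% of the body on 11.9% ± 2.94 and 3.28% ± 0.606 (SD, n = 3). The shares for the centre, the last 200 bp and 80% of the body were not split by length. The genes without H4Ac were shorter, with a mean of median lengths of 1910 bp against 2474 bp.

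For H4Ac the corresponding difference was smaller under the 200 bp rule and of the opposite sign. Its median share of the body was 29.5%, 29.4% and 29.6% on genes without H2A.Z and 30.5%, 29.8% and 30.5% on genes with H2A.Z, a difference of -0.780 ± 0.321 percentage points (exact sign-flip p = 0.25, n = 3), and 0.0444 points in the window around the TSS. With at least 50% of the body covered it was -9.67 points, larger in size than the 1.46 points of H2A.Z, so the order of the marks in this respect depended on the rule. The upstream edge of H4Ac lay at -14.2 ± 1.44 bp from the TSS on genes without H2A.Z and at 11 ± 2 bp on genes with it. Its width was 837 ± 14.2 bp and 837 ± 17.1 bp on these sets of genes. The H4Ac centre was beyond the midpoint of the gene on 5.64% ± 0.314 of genes without H2A.Z and 12.5% ± 0.00842 of genes with it (SD, n = 3).

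**Figure D5:**
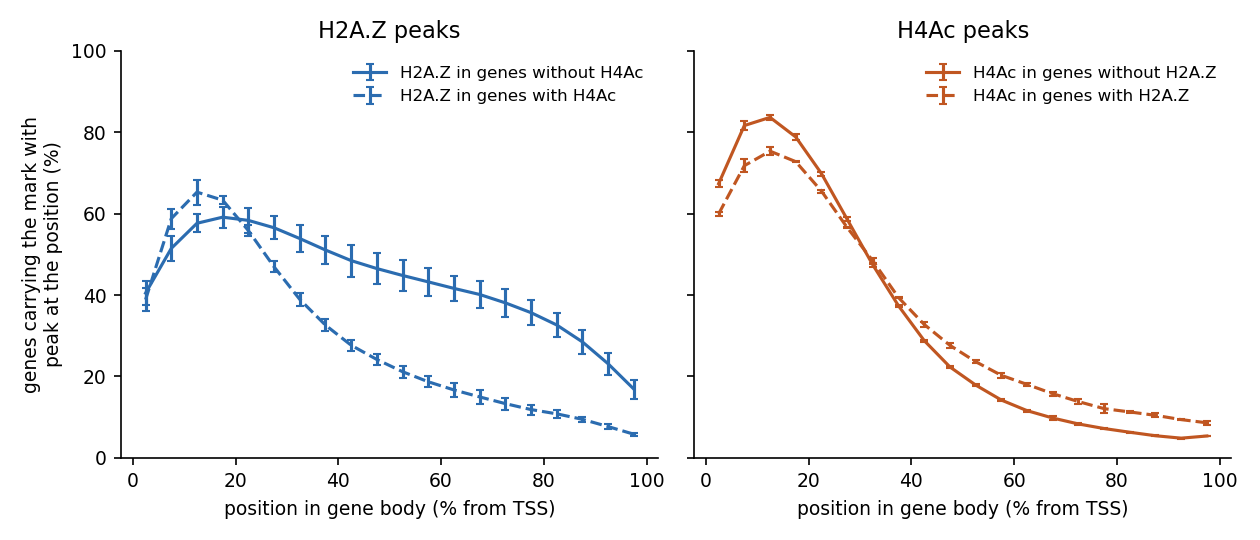
Percent of the genes carrying a mark that have a peak at each of 20 positions of the gene body (y axis), from the TSS to the end in percent of gene length (x axis), for genes without (solid) and with (dashed) the other mark. Lines are means and error bars SD of 3 replicates. H2A.Z extends to the end of the body more often without H4Ac (left panel), and the 2 H4Ac lines (right panel) lie closer together. The sets of genes were not matched for length.

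The overlap of the marks in the same preparation was within or near the range of that between different preparations. Bases under both marks, as a share of bases under either (the Jaccard index), came to 0.101, 0.0638 and 0.0758 for H2A.Z and H4Ac of the same preparation, and to 0.0666 to 0.0984 for the 6 pairs from different ones. In the same preparation, 22.0%, 18.1% and 17.7% of the H2A.Z length lay under H4Ac, and 15.8%, 8.98% and 11.7% of the H4Ac length lay under H2A.Z.

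Of 14 genes of SWR1 and its partners, 5, 2 and 4 carried H2A.Z in replicates 1, 2 and 3, a mean of 26.2% against 25.5% of all genes. H4Ac was carried by 9, 7 and 9 of them, a mean of 59.5% against 42.1% of all genes. In all replicates 2 had H2A.Z alone, 5 had H4Ac alone and none had both, where 9.09%, 23.4% and 2.92% of all genes fell in these classes, and with so few members no difference from all genes was read from these counts. HTA8 (AT2G38810), one of the genes for H2A.Z, had 921, 826 and 924 bp under H2A.Z and none under H4Ac in any library. HTA11 (AT3G54560), another H2A.Z gene, had 1037, 607 and 881 bp under H2A.Z and likewise no H4Ac. HTA9 (AT1G52740), the remaining H2A.Z gene of the list, carried no H2A.Z in any library and 954, 886 and 828 bp of H4Ac. ARP6 (AT3G33520), a subunit particular to SWR1, had no H2A.Z and 1026, 927 and 1051 bp under H4Ac. The 3 H2A.Z genes thus did not share a class, although each kept its class in every replicate.

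Other members were less even. PIE1 (AT3G12810), the ATPase of SWR1, had 439 bp under H2A.Z in replicate 1, the width of the narrowest peaks, and no peak of either mark elsewhere. MBD9 (AT3G01460), a methyl-CpG-binding-domain protein that associates with SWR1, had no H2A.Z, and H4Ac over 869, 0 and 578 bp. YAF9A (AT5G45600), a YEATS-domain subunit, had 669, 0 and 0 bp under H2A.Z and 638, 833 and 836 bp under H4Ac. ARP4 and SWC2 carried H4Ac alone in all replicates, with 699 to 827 bp and 850 to 959 bp, and AL7, an alfin-like gene, had neither mark.

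FLC and the loci probed singly in the study fell into several classes, apart from AT2G34202, which was not among the protein-coding genes scored and is not described. FLC (AT5G10140), the repressor of flowering, had 549, 0 and 542 bp under H2A.Z and 753, 454 and 0 bp under H4Ac, so its class was a different one in each replicate. AT3G21240, for a 4-coumarate:CoA ligase of the phenylpropanoid pathway, had H2A.Z alone over 1124, 1052 and 696 bp. AT1G76740 had 1340, 0 and 1533 bp, AT1G62760 had 769, 0 and 544 bp and AT5G28410 had 397, 0 and 348 bp under H2A.Z, all without H4Ac. Replicate 2, the shortest H2A.Z list, had no peak on these 3 genes. AT4G15960, an alpha/beta-hydrolase gene, had 926, 611 and 0 bp of H2A.Z and 206, 358 and 482 bp of H4Ac, with offsets of -1645 and -1579 bp, H2A.Z upstream, in replicates 1 and 2. ACT2 (AT3G18780), the actin gene often used as a reference, had no H2A.Z and 778, 688 and 860 bp of H4Ac. At4 had H2A.Z in replicate 1 over 439 bp and ASK11 had no peak. By ChIP-qPCR the paper reported H2A.Z in WT at FLC, At4 and ASK11, so a missing peak call there does not mean that the mark was absent.

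The widest single-mark genes were of different kinds. TRM7 (AT3G58650) had 3927, 3365 and 3874 bp of its 3927 bp under H2A.Z, and AT4G38062 had 3547, 3502 and 3577 bp of 3655 bp, so that nearly the whole gene was covered in both. TIL2 (AT2G27120), for a catalytic subunit of DNA polymerase epsilon, had 4543, 2878 and 4572 bp of 13184 bp. No H4Ac lay on these 3 genes. With H4Ac alone, AT4G20300 had 2601, 2318 and 2642 bp of 3929 bp, ATSAC1 (AT1G22620), a phosphoinositide phosphatase gene, had 2259, 2873 and 2253 bp of 8824 bp, and AT1G69910, a protein kinase gene of 1 exon, had 2251, 2226 and 2218 bp of 2564 bp.

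Groups of genes were read against the shares of all genes given above. Reference genes of expression work, such as actins, tubulins and GAPDH genes, carried no H2A.Z on any of 12 members. Of all genes, 30.5%, 20.2% and 25.8% carried it. H4Ac lay on 7 of the 12 in each replicate, a mean of 58.3% against 42.1% of all genes. In all replicates 6 of them had H4Ac alone, among them PP2AA3 with 532, 454 and 569 bp, and 4 had neither mark, among them ACT8 and UBQ10. Proteasome subunit genes had H4Ac on 26, 26 and 22 of 30 members and H2A.Z on 4, 2 and 1. The means were 82.2% and 7.78%, against 42.1% and 25.5% of all genes. Of the 30 members, 19 (63.3%, against 23.4% of all genes) had H4Ac alone in all replicates, among them PBE1 with 905, 974 and 977 bp. EMB2107 had H2A.Z alone over 210, 238 and 209 bp, just above the 200 bp required. The narrowest H2A.Z peaks measured 439, 461 and 428 bp, so part of each peak on EMB2107 lay outside the gene. The median H4Ac length per proteasome gene was 713 bp, against 122 bp over all genes.

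Ribosomal protein genes, matched by product name and including some for organelle ribosomes, were similar. H4Ac lay on 201, 184 and 181 of 275 members and H2A.Z on 42, 22 and 24. The means were 68.6% and 10.7%, against 42.1% and 25.5% of all genes. In all replicates 125 members (45.5%, against 23.4% of all genes) had H4Ac alone, 7 H2A.Z alone and 6 both. Their median gene length was 1565 bp and their median H4Ac length 561 bp. Nuclear photosystem and light-harvesting genes, which are highly transcribed in green tissue, differed from this. Only 9, 7 and 5 of 40 carried H4Ac, and 1, 0 and 0 carried H2A.Z. The means were 17.5% and 0.833%, against 42.1% and 25.5% of all genes. Their median length was 1340.5 bp, and H4Ac lay on 35.4% of all genes of 1000 to 2000 bp. In all replicates 30 (75.0%, against 26.8% of all genes) had neither mark, among them PSBP-1, PSAO and LHCB6, and 5 had H4Ac alone, among them PSAG with 522, 505 and 527 bp. Core histone genes had H2A.Z on 7, 4 and 5 of 19 members and H4Ac on 11, 7 and 10, means of 28.1% and 49.1% that were close to the 25.5% and 42.1% of all genes.

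H2A.Z was the more frequent mark in several groups of regulated genes. Of 24 developmental regulators known as Polycomb targets, 13, 8 and 9 carried H2A.Z and 2, 3 and 1 carried H4Ac. The means were 41.7% and 8.33%, against 25.5% and 42.1% of all genes. In all replicates 6 (25.0%, against 9.09% of all genes) had H2A.Z alone and 10 (41.7%, against 26.8%) had neither. None was in the class with both marks or with H4Ac alone in all replicates. KNAT6, a homeobox gene of the shoot meristem, had 1347, 1039 and 428 bp under H2A.Z, the last being the width of the narrowest peaks. CUC3, a boundary gene, had 1331, 697 and 1078 bp, and LEC2, an embryo regulator, had 555, 921 and 857 bp. Neither mark was found in any library on STM, AP1 and SEP3. Seed storage genes carried H2A.Z on 9, 8 and 4 of 12 members and H4Ac on none. The mean for H2A.Z was 58.3%, against 25.5% of all genes, and 42.1% of all genes carried H4Ac. Their median length was 1012.5 bp, below the 2088 bp of all genes. H4Ac lay on 10.8% of all genes under 1000 bp and 35.4% of those of 1000 to 2000 bp. SESA1, an albumin gene, had 471, 494 and 469 bp under H2A.Z.

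Cytochrome P450 genes had H2A.Z on 111, 80 and 91 of 224 members and H4Ac on 42, 39 and 35, means of 42.0% and 17.3% against 25.5% and 42.1% of all genes. In all replicates 46 (20.5%, against 9.09% of all genes) had H2A.Z alone, among them CYP77B1 with 1206, 1265 and 878 bp, and 16 (7.14%, against 23.4%) had H4Ac alone, among them CYP97A3, for a carotenoid hydroxylase, with 717, 610 and 751 bp. Heat shock proteins and factors carried H2A.Z on 23, 13 and 23 and H4Ac on 22, 16 and 19 of 38 members, and both marks in all replicates on 5 (13.2%, against 2.92% of all genes). One of these, HSP101, a chaperone of heat tolerance, had 677, 802 and 844 bp under H2A.Z and 1198, 1037 and 1288 bp under H4Ac. HSP70 (AT3G12580) had 1001, 846 and 784 bp under H2A.Z and 548, 454 and 698 bp under H4Ac.

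Among defence genes the NLR list was close to all genes, though lower in H4Ac than genes of its median length. The WRKY list was lower in H4Ac than all genes. NLR and other disease resistance genes had H2A.Z on 51, 35 and 41 of 156 members and H4Ac on 79, 66 and 56, means of 27.1% and 42.9% against 25.5% and 42.1% of all genes. Both marks in all replicates were found on 9 (5.77%, against 2.92% of all genes), among them ADR1, a helper NLR. ADR1 had 673, 461 and 428 bp under H2A.Z, in replicates 2 and 3 the width of the narrowest peaks. Its H4Ac covered 1004, 783 and 949 bp. The median length of the NLR list was 4231 bp, above the 2088 bp of all genes. Of all genes of 4000 to 6000 bp, 25.4% carried H2A.Z and 58.8% carried H4Ac. WRKY transcription factor genes had H2A.Z on 25, 15 and 20 and H4Ac on 20, 17 and 19 of 67 members. The means were 29.9% and 27.9%, against 25.5% and 42.1% of all genes. WRKY46 carried both marks, and WRKY35 had H2A.Z alone over 1596, 1712 and 1446 bp.

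Promoters of named genes are shown for genes with H2A.Z alone (HTA8, HTA11, TRM7 and AT4G38062) and with H4Ac alone (ARP6 and AT1G69910) in every replicate, because short promoter elements were counted in each class. Each sequence holds the 250 bp before the TSS in TAIR10, 5′ to 3′ on the transcribed strand, and no other annotated gene lies in these windows. The capitals mark matches on either strand to TATAAA (the core of the TATA box), AAACCCT (the core of the telo-box), GGCCCA (the core of site II elements), CACGTG (the G-box) or GAGAGA.
HTA8: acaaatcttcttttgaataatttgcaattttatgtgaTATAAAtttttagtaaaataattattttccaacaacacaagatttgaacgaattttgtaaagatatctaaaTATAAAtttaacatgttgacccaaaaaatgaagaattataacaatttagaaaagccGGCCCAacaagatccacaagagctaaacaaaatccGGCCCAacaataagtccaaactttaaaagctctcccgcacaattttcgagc
HTA11: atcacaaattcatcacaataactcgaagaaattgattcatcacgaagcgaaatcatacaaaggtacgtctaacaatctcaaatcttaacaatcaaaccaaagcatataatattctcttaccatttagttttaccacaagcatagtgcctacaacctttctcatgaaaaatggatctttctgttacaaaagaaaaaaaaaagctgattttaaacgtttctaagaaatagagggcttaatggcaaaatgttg
TRM7: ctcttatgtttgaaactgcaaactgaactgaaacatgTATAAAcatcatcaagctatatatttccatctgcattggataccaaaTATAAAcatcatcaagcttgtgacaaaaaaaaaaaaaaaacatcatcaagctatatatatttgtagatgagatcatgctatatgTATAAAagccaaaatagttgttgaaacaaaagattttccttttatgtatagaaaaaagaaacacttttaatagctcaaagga
AT4G38062: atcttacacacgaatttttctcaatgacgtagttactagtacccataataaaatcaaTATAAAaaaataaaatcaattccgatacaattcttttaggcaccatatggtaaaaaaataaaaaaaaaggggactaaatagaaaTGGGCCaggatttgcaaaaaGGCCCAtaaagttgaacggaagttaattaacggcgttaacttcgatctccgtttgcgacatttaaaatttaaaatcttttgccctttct
ARP6: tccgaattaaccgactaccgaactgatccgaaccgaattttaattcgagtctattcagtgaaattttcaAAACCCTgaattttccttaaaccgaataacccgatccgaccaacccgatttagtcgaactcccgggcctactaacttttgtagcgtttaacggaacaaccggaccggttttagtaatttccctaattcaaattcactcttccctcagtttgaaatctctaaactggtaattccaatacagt
AT1G69910: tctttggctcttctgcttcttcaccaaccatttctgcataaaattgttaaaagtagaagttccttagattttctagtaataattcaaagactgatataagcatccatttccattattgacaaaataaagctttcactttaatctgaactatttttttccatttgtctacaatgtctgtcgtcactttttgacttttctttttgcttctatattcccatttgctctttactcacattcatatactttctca
The windows lie at chr2:16220929-16221178 for HTA8 (minus strand), chr3:20195890-20196139 for HTA11 (plus), chr3:21699999-21700248 for TRM7 (minus), chr4:17875952-17876201 for AT4G38062 (plus), chr3:14095589-14095838 for ARP6 (minus) and chr1:26329613-26329862 for AT1G69910 (plus). HTA8 held TATAAA and GGCCCA at 2 places each, TRM7 held TATAAA at 3, AT4G38062 held TATAAA at 1 and GGCCCA at 2, and ARP6 held AAACCCT at 1. No motif was found in the windows of HTA11 and AT1G69910. Of the shown genes with H2A.Z alone, HTA8, TRM7 and AT4G38062 held TATAAA and HTA11 did not. ARP6 and AT1G69910 held no motif in common. Windows of other named genes, not shown, did not keep this division. TIL2, with H2A.Z alone, held no TATAAA. AT4G20300 and ATSAC1, with H4Ac alone and windows that overlap other genes, held TATAAA at 1 and 3 places. ACT2 and HTA9, also with H4Ac alone, held no motif.

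Over all 27215 promoter windows, TATAAA was found in 47.4%, AAACCCT in 7.34%, GGCCCA in 13.7%, CACGTG in 6.50% and GAGAGA in 20.5%. The motifs do not contain one another, and a match is only a match of letters. GGCCCA varied most between the stable classes, at 15.2% with both marks, 12.4% with H2A.Z alone, 18.6% with H4Ac alone and 7.62% with neither. TATAAA was found in 42.3% with both marks, 50.7% with H2A.Z alone, 44.2% with H4Ac alone and 49.8% with neither. Restricted to the transcribed strand and to 50 to 16 bp before the TSS, TATAAA was present in 5.15%, 10.1%, 6.60% and 10.7% of these classes, against 8.83% of all genes. The other motifs differed by less, with AAACCCT at 6.78% to 9.02%, CACGTG at 4.98% to 7.20% and GAGAGA at 19.9% to 22.4%. These shares carry no test, because the promoters of a class are not replicates.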

How the data were processed

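WT H2A.Z and WT H4Ac ChIP-seq peak lists were analysed, 3 of each. Per the Methods and labels, the authors aligned reads to TAIR10 (Bowtie2) and ran the HOMER peak caller on every library by itself, with input chromatin as control. The authors' deposited lists give positions only, in bp, with no reads, scores or p-values, so depth and counting error are unknown. Genes, exons and sequences came from RefSeq (TAIR10.1, whose nuclear chromosomes have the names and lengths of TAIR10).

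Calls, offsets and profiles were obtained in Python 3.11.15 (NumPy 2.4.6), and the steps were tested on simulated lists. Lists of different size were compared as deposited. Marks were compared over libraries by exact permutation and within preparations by exact sign-flip tests, both two-sided. Replicate numbers were taken to pair the marks because the Methods state shared chromatin. Deviations of gene calls from the mark means correlated at -0.00344 to 0.00551 for same-numbered and at -0.0114 to 0.00623 for other libraries, so the calls themselves showed no pairing.

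Genes named in the text are those the study probed or that belong to SWR1, those nearest to and furthest from the median offset, the most covered with 1 mark, and the first by locus number in each class of each list. Lists were matched by RefSeq symbol or product name, and 3 reference, 2 SWR1 and 2 developmental names did not match. Genes, lists and settings were chosen with earlier results of these data known.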

Additional observations from a re-analysis of the deposited data

How the results depend on the processing

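The exact tests used could not pass 0.05 under any alternative, so only direction and size are compared. With at least 50% of the body covered, the shares were 0.625% for both marks, 6.49% for H2A.Z alone, 6.13% for H4Ac alone and 86.8% for neither. The difference in genes carrying the marks (0.356 points), that in H4Ac with H2A.Z (1.88 points) and that in length between H2A.Z alone and both marks (144 bp) then turned sign. Among genes with no neighbour within 500 bp, the difference in genes carrying the marks turned (3.80 points), with 24.6% H2A.Z alone, 20.8% H4Ac alone and 48.7% neither. Over all annotated genes, the shares were 14.4% H2A.Z alone, 27.3% H4Ac alone and 52.0% neither. Genes of at least 1000 bp gave 38.8% H4Ac alone and 34.5% neither, and calls by peak centre gave 31.2% H4Ac alone. Without peaks of the most common width, both marks came to 4.38%, H2A.Z alone to 13.3% and neither to 48.9%. With lists of equal number, both marks came to 3.57%, H4Ac alone to 22.0% and neither to 57.2%, and the length of genes with H4Ac alone minus both turned to -10.7 bp. In the window around the TSS the difference in H4Ac body share turned to 0.0444 points. The offset was -82 bp at the downstream edge, against 106 bp at the upstream edge, and -9.83 bp at the mean position of covered bases in the gene. The cause of these changes was not tested.

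With the replicate block, the difference in genes carrying the marks was -16.6 points and that in distance from the TSS 117 bp, both with an exact sign-flip p of 0.25 in place of 0.1. Leaving out each replicate in turn kept every direction, with -17.8 to -14.8 points for genes carrying the marks, -15.3 to -15.1 points for H4Ac with and without H2A.Z, 115 to 119.5 bp for the distance and 14.2 to 20.8 bp for the offset. Rules on overlap with the body do not enter the distance from the TSS and were not run for it. All 6 lists rest on peak calls of unknown depth, and a gene without a peak may carry the mark below the caller's threshold.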

Other observations

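Peaks whose centre lay outside protein-coding genes were not part of the comparisons above. Of the H2A.Z peaks, 89.4%, 87.6% and 87.4% had their centre in a scored protein-coding gene in replicates 1, 2 and 3, and of the H4Ac peaks 94.0%, 93.9% and 94.5%. Among the remaining centres, annotated pseudogenes held 30.3% ± 1.67 of those of H2A.Z and 16.6% ± 1.90 of those of H4Ac (SD, n = 3). Genes for long noncoding RNAs held 8.94% ± 0.762 and 11.9% ± 0.894, and 54.6% ± 1.60 and 56.2% ± 3.89 lay between annotated genes. Other annotated genes held 6.16% ± 0.425 and 15.3% ± 1.19. These shares of the 2 marks did not overlap for pseudogenes, where H2A.Z was higher, nor for long noncoding RNAs and other annotated genes, where H4Ac was higher. The remaining centres they refer to numbered 977, 776 and 1023 for H2A.Z and 721, 640 and 572 for H4Ac. In number, long noncoding RNA genes held 94, 63 and 93 H2A.Z centres and 82, 73 and 74 H4Ac centres, so H4Ac was not the more numerous mark there in every replicate.

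Peaks of at least 2000 bp were found in every library, 256, 87 and 167 for H2A.Z and 124, 114 and 112 for H4Ac. As a share of the list they were 2.76%, 1.39% and 2.06% for H2A.Z against 1.03%, 1.08% and 1.07% for H4Ac. The widest peak measured 6078, 5982 and 6726 bp in the H2A.Z lists and 3505, 3413 and 4837 bp in the H4Ac lists.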
